A study of Mus musculus with 3 samples.

Results

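The cytosolic ribosome is built from RNA and a set of ribosomal proteins, and the genes of those proteins are described here in mouse gastrocnemius muscle. Probe sets, the groups of short probes that each give 1 value on the array, were chosen when the platform annotation gave them a single gene symbol beginning with Rpl or Rps in the usual form of a ribosomal protein. Ribosomal S6 kinases were left out. The rule found 100 probe sets of 46 genes, of which 24 encode large-subunit and 22 small-subunit proteins, among 18193 genes with a probe set of their own. Of the 46 genes, 44 passed the filter on low signal, 23 of the large and 21 of the small subunit. Rpl39l, a paralogue of Rpl39, and Rps16 did not pass, with their best probe sets at mean percentile ranks of 0.41 and 0.0076 over the arrays. Many ribosomal proteins were not analysed here because their symbols stand only on probe sets that list several genes: 28 symbols, Rpl3 and Rplp1 among them, were in that position.

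RNA came from mice of strain C57BL/CD1 and genotype Akt_Cre transgenic, in which a fusion of the kinase Akt with an oestrogen-binding domain is made in skeletal muscle. Tamoxifen is described as stabilising the fusion, raising Akt signalling and enlarging the muscle. The groups were tamoxifen for 24 h, tamoxifen for 48 h and oil for 24 h, all carrying the transgene, with 1 array each of RNA pooled from 3 to 4 mice. An oil array at 48 h and tamoxifen-treated mice without the fusion were not analysed here, so time and treatment at 48 h cannot be told apart, and neither can tamoxifen itself and the stabilised Akt. With 1 array a group there is no replicate error and no test, and both comparisons with oil share the same oil array. A gene is called higher or lower only when it differed at least 2-fold, which describes a pair of pools. All 8 fibre markers examined passed the signal filter, with summed intensities of 70327 at tamoxifen 24 h, 72898 at tamoxifen 48 h and 73049 with oil, and none differed 2-fold. In muscle homogenate, fewer cells of a type and less RNA per cell cannot be told apart.

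Ribosomal protein mRNAs are among the most abundant in most cells, and the proteins are needed in nearly equal numbers. Akt activates the kinase complex mTORC1, which raises ribosome production in part by releasing the translation of these mRNAs. They carry a 5′ terminal oligopyrimidine tract (TOP), a run of C and U right after the cap that the protein Larp1 binds when mTORC1 is inactive. An array measures the amount of mRNA and not how much of it is translated.

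Sequence around the starts of the genes is shown because mTORC1 acts on this family through the tract. Sequences are from RefSeq, mouse build GRCm38.p6, on the transcribed strand, for 40 of the 46 genes. Capitals mark the longest run of C and T that begins with C between 20 bases before and 50 bases after the annotated start. The first 3 genes are those that differed 2-fold on some array, then come the muscle paralogue Rpl3l, the stalk protein Rplp2, Rps18, with the highest 24 h ratio of the small subunit, and Rpl35, with small differences. The run of Rpl39 ends at the edge of the available sequence.
Rpl39: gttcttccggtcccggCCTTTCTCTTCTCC
Rpl27a: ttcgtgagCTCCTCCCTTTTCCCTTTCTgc
Rps27: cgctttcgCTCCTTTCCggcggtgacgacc
Rpl3l: tggtggggaggCCCCTTCCTaacctgcagg
Rplp2: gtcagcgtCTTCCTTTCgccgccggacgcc
Rps18: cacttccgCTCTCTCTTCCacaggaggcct
Rpl35: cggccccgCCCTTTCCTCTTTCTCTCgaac
The printed bases lie at chrX:37085173-37085202 (minus strand) for Rpl39, chr7:109519183-109519212 (plus strand) for Rpl27a and chr3:90213629-90213658 (minus strand) for Rps27. The others are at chr17:24727846-24727875 (plus strand) for Rpl3l, chr7:141447639-141447668 (plus strand) for Rplp2, chr17:33955646-33955675 (minus strand) for Rps18 and chr2:39005117-39005146 (minus strand) for Rpl35. Each interval is 30 bases long. Positions count the annotated start as 1 and the base before it as -1. The marked runs begin at -4 in Rpl27a, -2 in Rps27, -4 in Rplp2, -2 in Rps18 and -7 in Rpl35, and these printed stretches hold the annotated start. In Rpl39 the run begins at 37 and in Rpl3l at 32, so those stretches lie inside the transcript and do not hold the annotated start. Those runs are not beside the annotated start and are not shown here to be a TOP.

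A run of 7 or more anywhere in that search window was present in 31 of the 40 members (77.5%), against 29.4% of all 27025 RefSeq promoters of the same length. In 14 of the 40 (35%) the longest run was of 7 or more and began within 10 bases of the annotated start, against 9.59% of all promoters. That distance was chosen after the positions were seen. A run of 7 or more near the start was not counted where a longer one lay elsewhere in the window. By subunit a run anywhere in the window was present in 18 of 22 large-subunit genes (81.8%) and in 13 of 18 small-subunit genes (72.2%). The letters CCGGAAG, part of the site of the ETS factor GABP, were present on either strand in 20 of 40 members (50%), against 9.11% of all promoters. Their reverse complement CTTCCGG can overlap a pyrimidine run. The YY1 letters AAGATGGC were present in 3 members (7.5%) against 2.87% of promoters, and TATAAA in 5 members (12.5%) against 14.2%. All promoters include those of noncoding genes. Over the 17492 protein-coding promoters the shares were 11.9% for CCGGAAG, 3.21% for the YY1 letters and 13.3% for TATAAA. For the runs they were 29.4% anywhere in the search window and 9.67% near the start. The CCGGAAG, YY1 and TATAAA counts are matches of letters in a window of 300 bases and say nothing of binding.

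The ribosomal protein genes as a group lay close to oil and to the rest of the muscle transcriptome at both times. Their median log2 ratio was 0.02 for tamoxifen 24 h against oil and -0.02 for tamoxifen 48 h against oil. The medians over all 11092 genes kept were 0.04 and 0.01. Between the tamoxifen arrays, 48 h against 24 h, the members' median was -0.05 and that of all genes -0.02. The members also lay close together. At 24 h 40 of 44 (90.9%) were less than 1.25-fold from oil, and at 48 h 38 (86.4%), against 55.8% and 51.7% of all genes. Most members are bright, and bright genes as a whole lay closer to oil. Among genes with a mean percentile rank of 0.95 or more, a split chosen after the values were seen, 69.6% of 1357 genes were less than 1.25-fold from oil at 24 h and 62.6% at 48 h, against 53.9% and 50.2% of the 9735 dimmer genes. Of the 35 members in that bright class, 33 (94.3%) and 34 (97.1%) were, and all 35 were less than 1.5-fold from oil at both times. The 35 have mean ranks of 0.986 or more, toward the top of that class, so the 2 sets are not of like brightness. Whether the members lie closer to oil than equally bright genes was not tested. Of the 9 dim members, 7 (77.8%) were less than 1.25-fold from oil at 24 h and 4 (44.4%) at 48 h, so at 48 h they were no closer than other dim genes. None of the 35 differed 2-fold in any comparison, where 2.28% of bright genes did at 24 h, 3.46% at 48 h and 0.59% between the tamoxifen arrays. The median log2 ratio of the 35 was 0.02 at 24 h and -0.02 at 48 h, against 0.09 and 0.08 for all bright genes. Of the 35, 60.0% and 42.9% were above oil, against 64.3% and 59.2% of all bright genes.

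**Figure D1:**
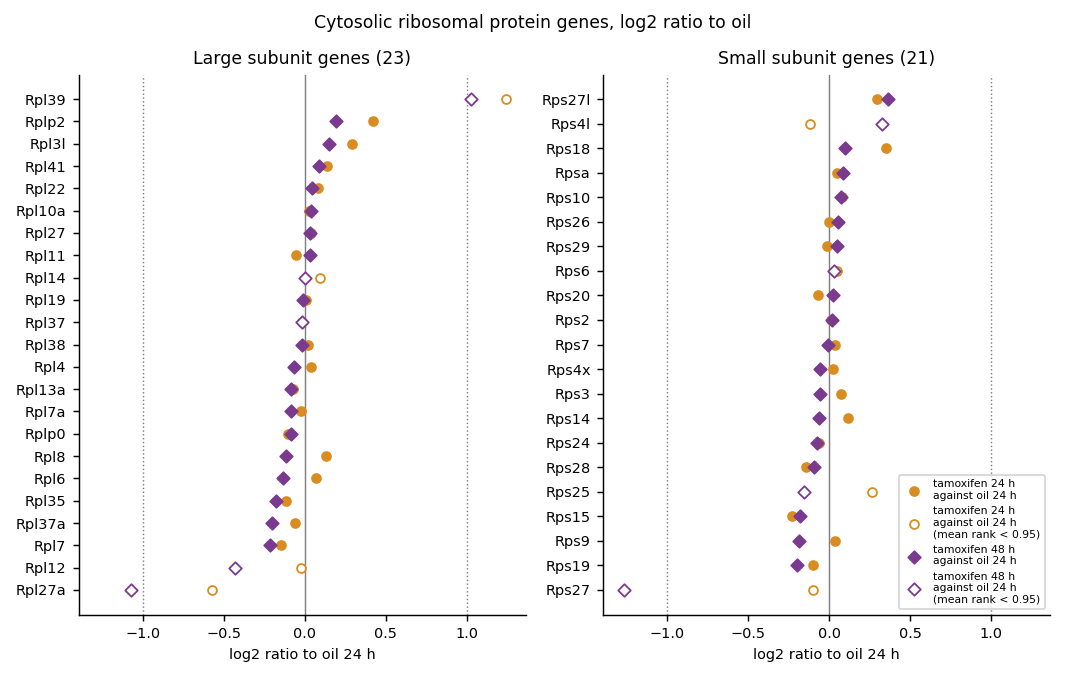
Log2 ratio of each ribosomal protein gene to the oil array at tamoxifen 24 h and 48 h, large-subunit genes apart from small-subunit genes; each point is 1 gene on 1 pair of arrays, hollow points have a mean percentile rank under 0.95 and dotted lines mark 2-fold. Nearly all points lie near 0, and Rpl39, Rpl27a and Rps27, all hollow, pass a 2-fold line.

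Large-subunit and small-subunit members did not separate against oil. At 24 h the median log2 ratio was 0.02 in both subunits, with quartiles of -0.06 and 0.09 in the large subunit and of -0.07 and 0.07 in the small. At 48 h the medians were -0.02 for the large and -0.01 for the small subunit. Between 48 h and 24 h of tamoxifen, 19 of 23 large-subunit genes lay below 0, with a median of -0.06, and 12 of 21 small-subunit genes, with a median of -0.01. Over all genes 5887 of 11092 lay below 0 in that comparison. The sizes are small, and the counts depend on how the arrays are scaled. As scaled here 4 large-subunit and 9 small-subunit genes lay above 0, against 0 and 1 with no scaling, and 6 and 11 after loess normalization. On probe sets that list several genes, the large-subunit median minus the small-subunit median was -0.11 at 24 h and 0.11 between the tamoxifen arrays. The second has the opposite sign to the members' difference, -0.05.

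**Figure D2:**
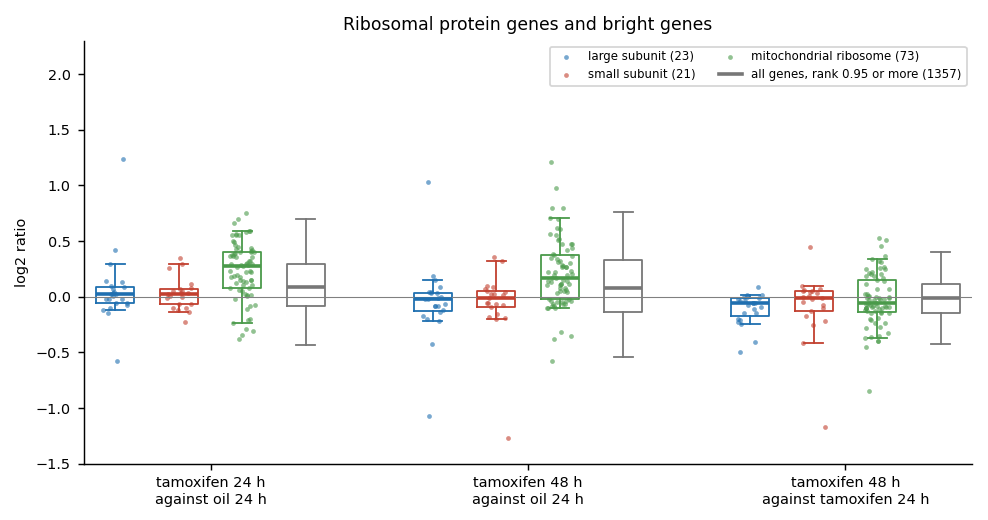
Log2 ratios of large-subunit, small-subunit and mitochondrial ribosomal protein genes and of all genes with a mean percentile rank of 0.95 or more, in the 3 comparisons; boxes are quartiles with the median, whiskers run from the 5th to the 95th percentile and points are genes, drawn for the ribosomal sets. The boxes of both cytosolic subunits are narrow and near 0, and the median of the mitochondrial ribosome lies above 0 in both comparisons with oil.

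At tamoxifen 24 h, 1 member of 44 differed 2-fold from oil, against 4.83% of all genes. It was Rpl39, which was higher, as were 2.35% of all genes, and no member was lower, as were 2.48%. At 48 h there were 3, against 6.44% of all genes. Rpl39 was higher, as were 3.72% of all genes, and Rpl27a and Rps27 were lower, as were 2.71%. Between the tamoxifen arrays 1 member, Rps27, was lower at 48 h than at 24 h, against 3.22% of all genes in either direction and 1.42% lower. None was higher, as were 1.8%. Over all 44 members these shares are near the background. Each of the 3 genes is among the 9 members with a mean rank under 0.95, so in that class 1 of 9 differed 2-fold from oil at 24 h, 3 of 9 at 48 h and 1 of 9 between the tamoxifen arrays. Among all genes under that rank 5.19%, 6.85% and 3.59% did.

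Rpl39 encodes a small basic protein that lines the tunnel through which the new peptide leaves the ribosome. Its only kept probe set, 1423032_at, had a scaled intensity of 95.6 at tamoxifen 24 h and 82.6 at tamoxifen 48 h, against 40.5 with oil. Both tamoxifen arrays stood above oil, 2.36-fold at 24 h and 2.04-fold at 48 h, and the log2 ratio of 48 h to 24 h was -0.21. With no scaling the 48 h log2 ratio was 0.97, just under 2-fold. A probe set that lists Rpl39 with other genes had log2 ratios of -0.04 and 0.16 against oil. The probe sets thus differed in both comparisons.

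Rpl27a is a core protein of the large subunit. Its probe set 1437729_at read 103.2 at tamoxifen 24 h and 73.3 at tamoxifen 48 h, against 153.8 with oil, so both treated arrays were below oil and the later one 2.10-fold. The probe set that lists Rpl27a among several genes had log2 ratios of 0.06 and 0.07. Rps27, a zinc-binding protein of the small subunit, read 47.8 at tamoxifen 24 h and 21.2 at tamoxifen 48 h, against 51.2 with oil, on probe set 1460699_at. Here the 48 h array alone stood apart, 2.41-fold below oil and 2.25-fold below tamoxifen 24 h. The probe set that lists Rps27 with others had log2 ratios of 0.18 and 0.12 against oil. None of the 3 differences was thus seen on the probe set shared with other genes, which cannot be assigned to one of them.

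**Figure D3:**
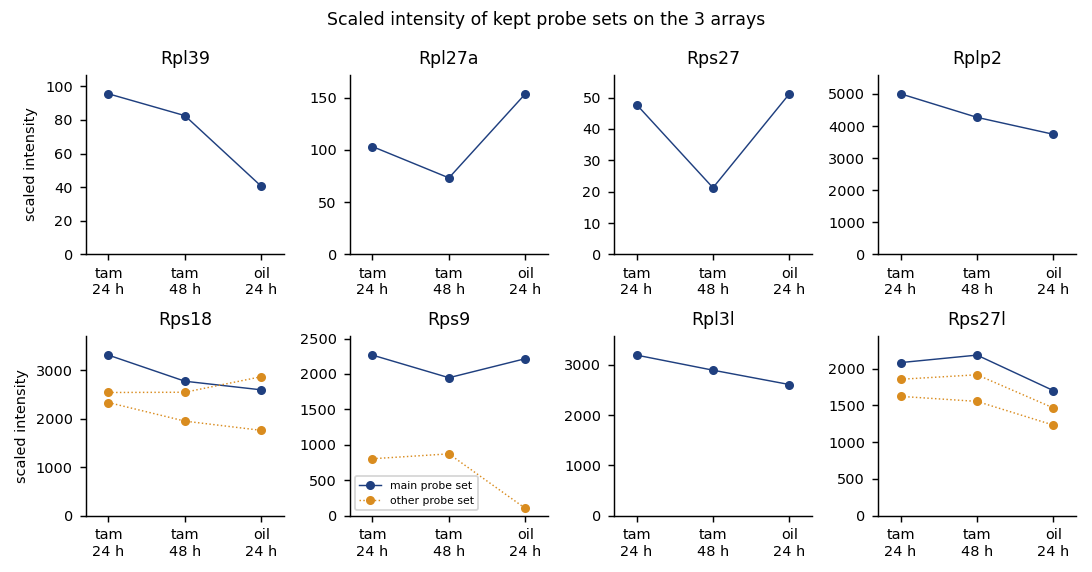
Scaled intensity of every kept probe set of 8 ribosomal protein genes at tamoxifen 24 h, tamoxifen 48 h and with oil; the solid blue line is the probe set on which the gene was read and dotted orange lines are its others. Rpl39 is higher on both tamoxifen arrays, Rps27 is lowest at 48 h, and the probe sets of Rps9 disagree.

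The ribosomal stalk, which recruits the factors that drive each round of translation, is made of Rplp0 with pairs of Rplp1 and Rplp2. Rplp2 read 5006 at tamoxifen 24 h and 4271 at tamoxifen 48 h, against 3743 with oil, log2 ratios of 0.42 and 0.19. At 24 h that was the highest ratio of any member with a mean rank of 0.95 or more. Rplp0, to which it is bound, read 5009 and 5077 on the tamoxifen arrays at 24 h and 48 h, against 5376 with oil, log2 ratios of -0.10 and -0.08. The stalk proteins measured lay on opposite sides of oil, both within 1.5-fold. Rpl12, a dim member at the base of the stalk, read 38.4 at 24 h and 29.0 at 48 h, against 39.0 with oil.

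In the rest of the large subunit differences were small on the probe sets on which the genes were read. Rpl8, near the centre where peptide bonds form, read 2049 and 1728 at tamoxifen 24 h and 48 h, against 1873 with oil, and its log2 ratio of -0.25 between 48 h and 24 h was the lowest among large-subunit genes of rank 0.95 or more. Rpl11, which can bind the p53 regulator Mdm2 when free of the ribosome, read 2334 and 2473, against 2423 with oil. Rpl7 had log2 ratios of -0.14 at 24 h and -0.22 at 48 h, the lowest of the bright members at that time. Rpl35 had -0.12 and -0.18, and Rpl41, a peptide among the smallest known, had 0.14 and 0.09. The 3 kept probe sets of Rpl41 ran from -0.20 to 0.21 at 48 h. Rpl37a had -0.06 and -0.20, Rpl37 -0.02 at both times, and Rpl10a 0.03 and 0.04. The remaining 9 large-subunit genes were Rpl13a, Rpl14, Rpl19, Rpl22, Rpl27, Rpl38, Rpl4, Rpl6 and Rpl7a. On the probe sets on which they were read, log2 ratios lay between -0.07 and 0.09 for 24 h, and between -0.13 and 0.04 for 48 h. Kept probe sets of Rpl27 ran from -0.20 to 0.04 at 24 h. At 48 h those of Rpl13a ran from -0.28 to -0.08 and those of Rpl22 from 0.04 to 0.25.

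Among small-subunit genes, Rps6, the protein phosphorylated by S6 kinase downstream of mTORC1, read 126.5 at tamoxifen 24 h and 124.6 at tamoxifen 48 h, against 122.3 with oil. The 3 arrays were nearly level for it, on a dim probe set with a mean rank of 0.84. Rpsa, also known as a laminin receptor, read 2698 and 2765, against 2608 with oil. Rps18, in the head of the subunit, read 3308 at 24 h and 2770 at 48 h, against 2593 with oil, log2 ratios of 0.35 and 0.10. Its 3 kept probe sets did not share a direction at 24 h, where they ran from -0.17 to 0.41. Rps15 had the lowest 24 h ratio of the subunit, reading 2940 and 3041 on the tamoxifen arrays, against 3451 with oil, log2 ratios of -0.23 and -0.18. Rps19, mutated in Diamond-Blackfan anaemia in humans, read 1824 and 1701, against 1955 with oil, and Rps14 had log2 ratios of 0.11 and -0.06. Rps28 had log2 ratios of -0.14 and -0.09, Rps29 of -0.02 and 0.05, Rps20 of -0.07 and 0.02, and Rps25, a dim member, of 0.26 and -0.16. The kept probe sets of Rps14 and Rps29 at 24 h, and of Rps20 at 48 h, did not share a direction. The remaining 6 small-subunit genes (Rps10, Rps2, Rps24, Rps26, Rps3 and Rps7) had log2 ratios between -0.06 and 0.08 for 24 h, and between -0.08 and 0.07 for 48 h.

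Paralogues that can replace the common protein were also measured. Rpl3l is made in place of Rpl3 in striated muscle, and its probe set read 3193 at tamoxifen 24 h and 2893 at tamoxifen 48 h, against 2608 with oil, log2 ratios of 0.29 and 0.15. Rps27l, a paralogue of Rps27 and a known p53 target, read 2084 and 2186, against 1702 with oil, log2 ratios of 0.29 and 0.36. All 3 of its probe sets were above oil at both times, and at 48 h it had the highest ratio of the bright members, 1.28-fold. Rps4x read 4258 and 4032, against 4193 with oil, while its dim paralogue Rps4l read 23.9 and 32.5, against 26.0. Rpl39l, below the signal filter, read 7.03 and 7.39, against 14.8 with oil. No paralogue that passed the signal filter differed 2-fold.

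**Figure D4:**
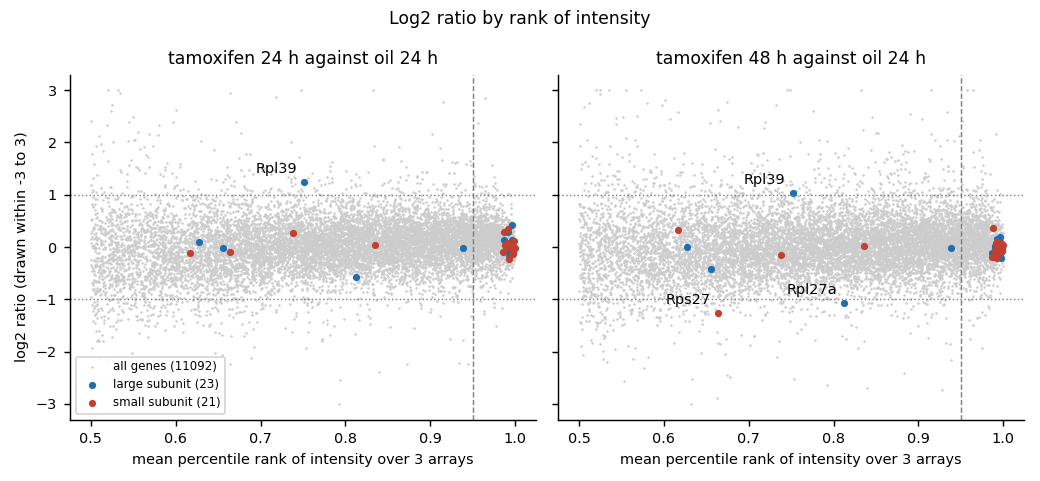
Log2 ratio to oil of each large-subunit (blue) and small-subunit (red) gene and of all 11092 genes (grey, drawn no further than -3 and 3) against the mean percentile rank of its probe set over the 3 arrays, at tamoxifen 24 h and 48 h; the dashed line marks a rank of 0.95 and dotted lines 2-fold. The genes past 2-fold, Rpl39, Rpl27a and Rps27, lie left of the line.

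Probe sets of 1 gene often differed from each other. Of the 19 members with 2 or more kept probe sets, these had the same sign in 10 genes at 24 h, 11 at 48 h and 9 between the tamoxifen arrays. The median range between a gene's probe sets was 0.18, 0.20 and 0.14 on the log2 scale, wider than most members' ratios. Rps9, a small-subunit protein tied in yeast to decoding accuracy, was the extreme. Its main probe set 1433689_s_at read 2266 at tamoxifen 24 h and 1947 at tamoxifen 48 h, against 2216 with oil. Its other kept probe set, 1434624_x_at, read 804 and 873, against 103 with oil, log2 ratios of 2.97 and 3.08. Counting it, 8 of 21804 kept probe sets on the arrays (0.0367%) stood at least as high in both comparisons. The suffix x marks probes that can match other transcripts, and Rps9 itself is read on the main probe set, with log2 ratios of 0.03 and -0.19. What the x probe set bound was not tested. Suffixes are common in the family, since 30 of the 44 members were read on a probe set marked a (14), x (14) or s (2). The suffix a marks probes shared by transcripts of the same gene, while s and x probes can match transcripts of other genes.

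The 99 kept probe sets that list a ribosomal protein among several genes cover much of what the members leave out. Their median log2 ratios were -0.02 at 24 h and -0.06 at 48 h against oil, and -0.05 between the tamoxifen arrays. Of them, 87 (87.9%) lay less than 1.25-fold from oil at 24 h and 82 (82.8%) at 48 h.

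Mitochondrial ribosomal proteins, which build the separate ribosome of that organelle, stood higher. Their median log2 ratio over 73 genes, all kept, was 0.28 at 24 h and 0.17 at 48 h, against 0.02 and -0.02 for the cytosolic members. Of the 73, 62 were above oil at 24 h and 54 at 48 h, against 25 and 19 of the 44 cytosolic members. Over all genes 54.0% and 50.6% were above oil. In the mitochondrial set 1 gene, Mrps27, was 2-fold higher at 48 h, where 3.72% of all genes were, and none at 24 h, where 2.35% of all genes were. The difference between the ribosomes was not tested.

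Genes around the ribosome were read as lists. Other mRNAs with a known TOP, mainly translation factors, had medians of -0.04 at 24 h and -0.19 at 48 h over 16 kept genes of 17, and none differed 2-fold. The elongation factor Eef1a1 had log2 ratios of -0.04 and -0.35, the histone chaperone Nap1l1 of -0.34 and -0.75, and the initiation factor Eif4b of -0.48 and -0.61. Vim, an intermediate filament protein, had -0.42 and -0.24. Ribosomal proteins with symbols outside the rule had medians of 0.12 and 0.13 over 3 kept genes of 6: Fau at -0.01 and -0.22, Rpl22l1 at 0.30 and 0.13, and Rpl7l1 at 0.12 and 0.30. None of the 3 differed 2-fold.

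Chaperones that carry ribosomal proteins and late assembly factors had medians of 0.21 and 0.10, with 11 of 12 above oil at 24 h and 9 at 48 h. None differed 2-fold. Nle1, a large-subunit assembly factor, had log2 ratios of 0.66 and 0.41, and Grwd1, a histone and ribosomal protein chaperone, of 0.49 and 0.73. Bccip had 0.56 and 0.41, and Rpf2, which brings 5S ribosomal RNA into the large subunit, 0.37 and 0.59. Genes of mTORC1 and S6 kinase signalling had medians of 0.43 and 0.09 over 14 kept genes of 16, with 10 above oil at 24 h and 11 at 48 h, and none differed 2-fold at 24 h. In that list Eif4ebp1, a repressor of cap-dependent translation, had -0.61 and -0.52. Mlst8, a subunit of mTORC1, had 0.65 and 0.52, and Larp1 had 0.22 and 0.17. Eif4ebp2, Tsc2 and Akt1s1, also repressors or inhibitors in this signalling, stood above oil, with 0.54 and 0.61, 0.49 and 0.64, and 0.47 and 0.15. Tsc1 had -0.07 and 0.04. Ddit4, an inhibitor of mTORC1, was the only gene of the list to differ 2-fold from oil at 48 h, being lower. It read 371.7 at tamoxifen 24 h and 122.2 at tamoxifen 48 h, against 268.8 with oil.

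Of 6 transcription factors tied to ribosomal protein promoters, all kept, the medians were -0.16 and -0.11. Gabpa had log2 ratios of -0.63 and -0.88, and Yy1 of -0.44 and -0.62. Myc had -0.79 and 0.10, reading 17.9 at tamoxifen 24 h and 33.1 at tamoxifen 48 h, against 30.9 with oil. Max was higher at 24 h, on a dim probe set that read 55.2 at tamoxifen 24 h and 15.9 at tamoxifen 48 h, against 9.88 with oil. Between the tamoxifen arrays Max was 3.47-fold lower at 48 h. Of 5 genes of the p53 response, to which free ribosomal proteins signal, 3 were kept, with medians of 0.11 and 0.27. Cdkn1a, a cell cycle inhibitor, was the only one to differ 2-fold from oil, at 24 h, with log2 ratios of 2.16 and 0.51. Mdm2, which marks p53 for degradation, had 0.04 and -0.24, and Ccng1 had 0.11 and 0.27.

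Some markers of other cells differed between the same arrays, and their part in the members' ratios was not tested. The neutrophil markers S100a8 and S100a9, 2 of 3 kept, were both lower at 48 h, with summed intensities of 94.2 at tamoxifen 24 h and 41.1 at tamoxifen 48 h, against 146.1 with oil. Macrophage markers, 5 of 5 kept, summed to 1200 at 24 h and 1102 at 48 h, against 1250 with oil, and 1 of them was lower at 48 h. Satellite cell markers, 3 of 3 kept, summed to 158.2 and 203.9, against 122.9. Cdh15 alone was above oil, with log2 ratios of 1.25 and 1.79, while Pax7 had -0.51 and -0.45 and Vcam1 had -0.54 and -0.60. Fibroblast markers, 5 of 5 kept, summed to 11992 and 12286, against 13326, with 1 higher at 48 h. Endothelial markers, 4 of 4 kept, summed to 667.8 and 513.7, against 612.0. Adipocyte, red blood cell and Schwann cell lists each had 1 of 3 markers kept, and none of these differed 2-fold.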

How the data were processed

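The authors deposited 1 linear intensity for each of 45101 probe sets and 3 arrays. Their summary, background correction and scaling are not given in the sources used here. Per the labels' protocols, RNA was purified with Trizol and RNeasy and labelled with biotin.

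After 64 control probe sets were removed, probe sets with a percentile rank averaging 0.5 or more over the arrays were kept (21804). Each array was then multiplied so that the medians of these probe sets were equal, by 0.944 for tamoxifen 24 h, 1.05 for tamoxifen 48 h and 1.01 for oil. Values were floored at the 25th percentile of the scaled values (4.05), which no member reached, and log2 values were taken. Each gene was read on the kept probe set with the highest mean rank, so levels are not compared between genes. The number of arrays limits the precision. The named members are those at least 2-fold different and, per comparison and subunit, the 4 highest and 4 lowest, with Rplp0, Rplp2, Rps6, Rpsa and the paralogues. Of each list, genes at least 2-fold different, or otherwise the 2 furthest from 0, are named. Others named were chosen after their values were seen. Members and lists were chosen with earlier results of these data known. Python 3.11.15, pandas 2.3.3 and statsmodels 0.14.6 (loess) were used, and the calculation was tested on simulated data. One marker list is not reported here.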

Additional observations from a re-analysis of the deposited data

How the results depend on the processing

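No paired analysis was possible because each group has 1 array. The members' median log2 ratio was recomputed over other scalings, filters, floors and probe choices. It lay between -0.02 and 0.12 for 24 h, and between -0.08 and 0.00025 for 48 h. The -0.02 is that of the probe sets that list several genes, which are not members. Under loess the members' 24 h value was negative, -0.01. Between 48 h and 24 h of tamoxifen the members' median was -0.20 with no scaling, where the median of all genes was -0.18. The count of members 2-fold different from oil at 24 h became 2 with a rank filter of 0.25 or with no filter, where Rpl39l joined Rpl39, and 2 with the mean of each gene's probe sets, where Rps9 joined Rpl39. The count between the tamoxifen arrays became 0 with a rank filter of 0.75. In alternatives added after seeing the data, no member with a mean rank of 0.95 or more differed 2-fold in any comparison (0 in each), and on probe sets that list several genes the large-subunit median minus the small-subunit median was -0.11 at 24 h and 0.11 between the tamoxifen arrays. The other 113 values for the group stayed within the margin used, 0.1 on the log2 scale for medians and 1.5 times for counts. For single genes the margin was the pooled standard deviation between a gene's probe sets. It was 0.36 at 24 h, 0.39 at 48 h and 0.11 between the tamoxifen arrays. Rps9 alone had 2.07 and 2.31 against oil, and the margins against oil are wider than most members' ratios. Of the single-gene values 770 stayed within the margin and 34 did not. No ratio of 2-fold or more changed sign, and smaller ratios were not counted for a change of sign. Over all genes, 48.7% of those 2-fold different at 24 h were higher, and 63.8% with no scaling, 60.0% after quantile normalization and 58.8% after loess. Between the tamoxifen arrays these shares were 56.0%, 29.3%, 43.0% and 48.0%. Counts of 2-fold genes over all genes also moved by over 1.5 times with the rank filter: at 24 h 261 were higher and 275 lower, and 640 and 1097 with a filter of 0.25, or 115 and 67 with 0.75. Dim probe sets limit what can be read, since the 3 members past 2-fold are all dim.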
